A study of Saccharomyces cerevisiae with 11 samples.

Results

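The 42 genes described here encode the machinery that copies the chromosomes of budding yeast, and they were taken by name, for their known roles, from the 7036 features of the expression table. By role they comprise 6 genes for origin licensing (ORC1, ORC2, ORC4, ORC5, ORC6 and CDC6), the 6 subunits of the MCM helicase (MCM2 to MCM7), 5 for its activators Cdc45 and GINS (CDC45, PSF1, PSF2, PSF3 and SLD5) and 3 for origin firing (SLD2, SLD3 and DPB11). A further 8 encode polymerase subunits (POL1, POL12, PRI2, POL3, POL31, POL32, POL2 and DPB2) and 6 the sliding clamp and its loader (POL30 and RFC1 to RFC5). The others are 2 subunits of the single-strand binding protein RPA (RFA2 and RFA3), 4 fork protection genes (CTF4, MRC1, TOF1 and CSM3) and 2 genes for joining Okazaki fragments (RAD27 and CDC9). All 42 were found in the table and all 42 passed the filter on low values, since the lowest value of any of them in any library was 9.68 scaled TPM.

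The series measured yeast RNA levels with mutated or missing Scc2, a subunit of the cohesin loader, which places cohesin rings on chromosomes. Total RNA was depleted of ribosomal RNA and sequenced as stranded libraries of 50 bp single reads from 11 cultures in 4 groups. Every culture, WT included, was of 1 W303 background, MATa, with ade2-1, trp1-1, can1-100 and the labelled his3 and leu2 marker alleles, in which the chromosomal SCC2 carried the AID*-6FLAG degron tag with HYG and ura3-1 carried ADH1-OsTIR1 (pMK200, URA3), the plant F-box protein that marks tagged proteins for destruction when auxin is present. The groups differed in the pRS413 HIS plasmid: SCC2-7MYC in WT (3 libraries), scc2-R787G-7MYC in R787G (3), scc2-G1242V-7MYC in G1242V (3), and no insert in the empty vector group, which the labels call NULL (2). All cultures grew in SD-HIS with 1 mM of the auxin 3-indoleacetic acid for 9 hours, so that the plasmid was the intended source of Scc2 and no group was left without auxin. The labels name the replicates as cultures and give no clone or cell cycle arrest, and the p-values measure the spread between these cultures.

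Replication begins at origins, which the origin recognition complex (ORC) marks and where Cdc6 and Cdt1 load rings of the MCM helicase in G1. At the start of S phase the firing factors Sld2, Sld3 and Dpb11 bring Cdc45 and GINS to the loaded helicase, and polymerase alpha-primase, delta and epsilon then synthesize DNA with the clamp PCNA, which replication factor C loads. In budding yeast many of these genes are transcribed in a burst at the G1/S transition by the factor MBF (Mbp1 with Swi6), which binds MluI cell cycle boxes (MCB), while the related factor SBF (Swi4 with Swi6) binds Swi4 cell cycle boxes (SCB). Several licensing genes are instead known for expression between M phase and G1 through the factor Mcm1.

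The promoters of 6 of the genes are printed here to show which of them hold the letters these factors are known to bind. Each is the RefSeq R64 sequence, the same assembly as sacCer3, from 250 bases before to 50 bases after the first base of the start codon, read 5′ to 3′ on the strand of the gene. Capitals mark the MCB, ACGCGT, its core, ACGCG, on either strand, the SCB letters CGCGAAA or the letters CACGAAA on either strand, and the Mcm1 box. CDC45 (chrXII:345892-346191, minus strand) had the most MCB among genes that passed against WT in both the empty vector and R787G groups, a tie at 2 settled by alphabet, and POL30 (chrII:425717-426016, minus strand) had the largest change in each comparison with WT. MCM6 (chrVII:120858-121157, minus strand) holds the Mcm1 box, searched only as CC, then 6 letters that are A or T, then GG. Looser forms of the Mcm1 site were not searched. DPB2 (chrXVI:888724-889023, plus strand), RFA2 (chrXIV:48037-48336, plus strand) and ORC5 (chrXIV:154850-155149, plus strand) were chosen after their values were seen, the first for a large rise, RFA2 for a pair of MCB without a rise, and ORC5 for a fall.
POL30: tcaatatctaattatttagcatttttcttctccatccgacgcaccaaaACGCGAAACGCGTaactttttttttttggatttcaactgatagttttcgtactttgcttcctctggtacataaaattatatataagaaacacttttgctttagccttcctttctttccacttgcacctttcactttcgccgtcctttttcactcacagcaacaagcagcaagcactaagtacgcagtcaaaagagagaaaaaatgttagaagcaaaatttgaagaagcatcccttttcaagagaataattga
CDC45: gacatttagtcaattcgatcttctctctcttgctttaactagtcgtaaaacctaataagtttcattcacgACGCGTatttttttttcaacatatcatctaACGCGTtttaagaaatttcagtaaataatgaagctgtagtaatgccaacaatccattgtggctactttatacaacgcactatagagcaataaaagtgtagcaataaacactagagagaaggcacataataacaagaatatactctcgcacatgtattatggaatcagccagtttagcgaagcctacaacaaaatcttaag
DPB2: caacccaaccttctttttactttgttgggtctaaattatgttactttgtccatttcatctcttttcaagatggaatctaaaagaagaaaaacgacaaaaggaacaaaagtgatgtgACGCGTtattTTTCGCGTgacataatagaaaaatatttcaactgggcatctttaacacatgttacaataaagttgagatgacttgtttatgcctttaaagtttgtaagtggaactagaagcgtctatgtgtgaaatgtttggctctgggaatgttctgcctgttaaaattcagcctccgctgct
RFA2: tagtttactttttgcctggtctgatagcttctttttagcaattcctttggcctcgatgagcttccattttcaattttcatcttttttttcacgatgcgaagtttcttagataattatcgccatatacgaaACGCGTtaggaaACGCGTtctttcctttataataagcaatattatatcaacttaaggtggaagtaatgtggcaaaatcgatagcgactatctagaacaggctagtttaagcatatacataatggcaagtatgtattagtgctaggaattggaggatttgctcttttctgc
ORC5: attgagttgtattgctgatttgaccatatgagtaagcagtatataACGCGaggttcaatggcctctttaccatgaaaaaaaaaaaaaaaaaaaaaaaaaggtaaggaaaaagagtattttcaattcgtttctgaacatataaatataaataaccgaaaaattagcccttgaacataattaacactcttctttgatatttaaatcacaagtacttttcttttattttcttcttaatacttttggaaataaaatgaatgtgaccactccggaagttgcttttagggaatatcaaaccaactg
MCM6: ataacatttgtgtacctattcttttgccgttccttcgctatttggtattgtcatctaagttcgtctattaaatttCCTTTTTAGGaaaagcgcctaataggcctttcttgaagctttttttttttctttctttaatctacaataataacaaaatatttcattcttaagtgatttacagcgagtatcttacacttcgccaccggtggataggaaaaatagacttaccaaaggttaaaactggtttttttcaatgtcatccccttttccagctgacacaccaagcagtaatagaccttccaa
In POL30 the core at -202, counted to the first base of the start codon, runs into the SCB letters at -201 and is followed by an MCB at -195. CDC45 has MCB at -180 and -150 and RFA2 at -120 and -108. DPB2 has an MCB at -134 and the SCB letters on the other strand at -124. ORC5 has a core at -205 and no MCB, and MCM6 has only the Mcm1 box, at -175.

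SCC2 itself followed the labels. Its level was 126, 101 and 108 scaled TPM in the WT libraries, 100.4, 132 and 105.5 in R787G and 78.1, 96.9 and 96.4 in G1242V, against 23.9 and 22.5 in the empty vector libraries, in which only the tagged chromosomal copy remained. The difference of the empty vector group from WT was -2.21 ± 0.14 on the log2 scale (SE; limma, adjusted p = 2.34e-06). The mating type matched too: 6 genes specific to a cells summed to between 456.5 and 857 scaled TPM in every library, and 3 genes specific to alpha cells to between 6.73 and 18.3. A pair of libraries stood apart. WT replicate 2 held 9.19% of its TPM in ribosomal RNA, against 0.155% to 0.494% in the others, and G1242V replicate 3 was the lowest of its group in 37 of the 42 replication genes. Counts against WT are given with and without them. Chromosome I stood apart as well: its 73 genes of at least 10 TPM had a median log2 difference from the gene medians of 0.80 in WT replicate 1 and 0.64 in G1242V replicate 2, against -0.30 to 0.27 in the other libraries, and that of chromosome IX reached 0.41 (R787G replicate 3) and 0.23 (G1242V replicate 3). None of the 42 genes lies on either chromosome. The table gives TPM only, so the read depth behind each value is unknown, and in bulk cultures more cells in S phase and more RNA per cell cannot be told apart.

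Replication genes were mostly higher than WT in all 3 other groups, and the rise was broadest in R787G and in the empty vector group. With the empty vector 29 of the 42 rose and 3 fell at an adjusted p under 0.05 (limma, adjusted over 6432 features), where 36.8% of all features rose and 25.2% fell. In R787G 31 rose and 3 fell, against 36.5% and 29.3% of all features. In G1242V 22 rose and 7 fell, against 26.6% and 27.3%. The median log2 fold change of the 42 was 0.36 with the empty vector, 0.44 in R787G and 0.21 in G1242V, beside 0.089, 0.067 and 0.002 over all features. These 3 comparisons share the WT libraries. Most changes were below 2-fold: 3 of the genes rose at least 2-fold with the empty vector, 5 in R787G and 1 in G1242V, beside 10.7%, 7.6% and 4.76% of all features. The 42 genes together summed to 1387, 1440 and 1356 scaled TPM in WT, 1890, 1853 and 1879 in R787G, 1643, 1713 and 1441 in G1242V and 1826 and 1825 with the empty vector. G1242V replicate 3 lay just above the highest WT library and the other 7 lay clear of it. Without that library 26 genes rose and 6 fell in G1242V, with a median of 0.28, and MCM4, PSF3, POL3, POL2 and TOF1 passed in addition. Likewise without WT replicate 2 the counts were 29 and 3, 31 and 3, and 21 and 5.

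**Figure D1:**
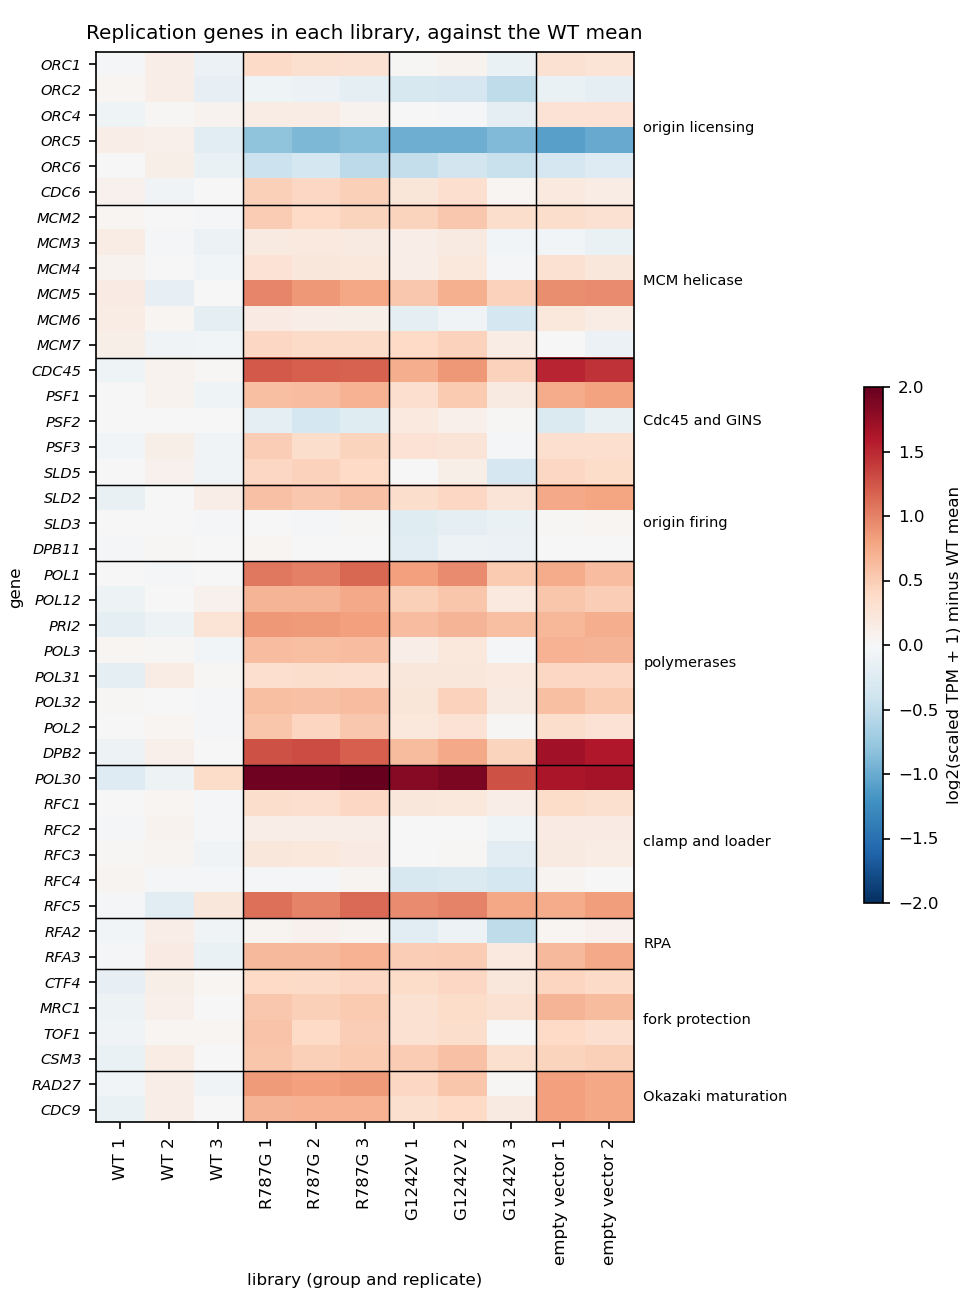
Difference of each of the 42 genes (rows, by role) from the WT mean in each of the 11 libraries (columns), as log2(scaled TPM + 1), with red for higher and blue for lower. POL30, CDC45 and DPB2 are the darkest red rows, ORC5 and ORC6 are blue in every library outside WT, paler blue marks ORC2, PSF2, RFC4 and RFA2 in some groups, and G1242V replicate 3 is paler than replicates 1 and 2 of its group.

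Origin licensing held the largest number of falls of any role. Of its 6 genes 2 fell with the empty vector, 2 in R787G and 3 in G1242V. These are 33.3%, 33.3% and 50.0%, where 25.2%, 29.3% and 27.3% of all features fell. The share is thus near that of all features with the empty vector and in R787G. In G1242V origin firing had a larger share, with 2 of 3 genes (66.7%). ORC5, a subunit of the origin recognition complex, stood at 68.0, 66.9 and 52.9 scaled TPM in WT. In R787G it stood at 35.4, 32.8 and 34.0, in G1242V at 31.3, 31.2 and 33.2, and with the empty vector at 28.7 and 30.5. Every WT library was above every other library. The log2 fold change against WT was -1.05 ± 0.10 with the empty vector (SE; limma, adjusted p = 1.88e-05), -0.85 ± 0.09 in R787G (2.66e-05) and -0.94 ± 0.09 in G1242V (2.04e-05). ORC6, the subunit known as a target of cyclin-dependent kinase, fell as well, by 0.29, 0.43 and 0.43 on the log2 scale. Its WT libraries lay at 34.2 to 41.1 and all others at 25.9 to 31.5, and with the empty vector the call was lost on TPM as deposited, on TPM rescaled to coding genes and without empty vector replicate 1. ORC1, the largest ORC subunit and an ATPase, was at 20.3, 22.6 and 19.0 in WT, 27.2, 26.1 and 25.6 in R787G, 20.9, 21.6 and 18.6 in G1242V and 25.7 and 25.1 with the empty vector. It thus rose in R787G (0.34 ± 0.075) and with the empty vector (0.29 ± 0.084), while G1242V overlapped WT (-0.02 ± 0.075).

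CDC6, the factor that loads the helicase together with ORC, was at 23.4, 20.8 and 21.8 scaled TPM in WT and at 30.8, 29.6 and 31.1 in R787G, a rise of 0.45 ± 0.078 (limma, adjusted p = 5.55e-04). In G1242V its libraries were at 26.3, 28.0 and 22.7 and overlapped WT, with a fold change of 0.21 ± 0.078 (adjusted p = 0.0426) that did not pass in 13 of 22 other settings. With the empty vector it was at 25.3 and 24.6, both above WT, and did not pass (0.17 ± 0.087, adjusted p = 0.105). ORC2 fell in G1242V (-0.39 ± 0.083) and was at -0.16 and -0.13, not passed, with the empty vector and in R787G. ORC4 rose with the empty vector (0.28 ± 0.071) and was at 0.12 and -0.07 in the mutants. In WT the highest mean was that of ORC5, 3.04 times the lowest, ORC1. The means of all 6 lay between 25.0 and 33.5 with the empty vector, 26.3 and 34.1 in R787G and 20.4 and 31.9 in G1242V.

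The MCM subunits, which form a ring together, differed in their changes. MCM5 was at 40.7, 32.3 and 36.5 scaled TPM in WT, 72.1, 67.4 and 63.0 in R787G, 53.4, 60.3 and 50.2 in G1242V and 70.0 and 71.1 with the empty vector. All 3 groups were above WT without overlap, by 0.87 ± 0.095, 0.57 ± 0.095 and 0.94 ± 0.11 on the log2 scale (limma, adjusted p = 3.12e-05, 6.33e-04 and 4.76e-05). MCM2, at 34.1, 32.8 and 32.0 in WT, 47.0, 43.7 and 45.5 in R787G, 45.2, 48.5 and 42.2 in G1242V and 42.2 and 41.0 with the empty vector, also rose in all 3, by 0.45, 0.44 and 0.33. MCM4, at 51.2, 48.6 and 47.1 in WT, was at 59.9, 57.7 and 56.7 in R787G and 60.5 and 57.4 with the empty vector, and rose by 0.24 and 0.26. Its G1242V libraries, at 53.7, 56.9 and 47.6, overlapped WT.

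MCM7 was at 47.4, 41.5 and 41.9 scaled TPM in WT and rose to 58.5, 57.1 and 56.8 in R787G (0.39 ± 0.086) and 57.9, 60.0 and 48.3 in G1242V (0.33 ± 0.086). With the empty vector it was at 43.1 and 39.9, within or below the WT range (-0.07 ± 0.096), and the direct difference from R787G was -0.46 ± 0.096 (limma, adjusted p = 0.00516). MCM3 had 44.2, 39.4 and 36.6 in WT, 45.2, 45.7 and 45.4 in R787G, 44.0, 45.1 and 38.3 in G1242V and 38.2 and 36.2 with the empty vector. MCM6 had 45.2, 41.4 and 35.3 in WT, 45.3, 44.4 and 43.8 in R787G, 35.4, 38.6 and 31.6 in G1242V and 46.7 and 44.9 with the empty vector. Neither passed in any comparison with WT. In R787G the 95% intervals, from 0.00 to 0.36 for MCM3 and from -0.07 to 0.34 for MCM6, leave room for the rise seen in MCM4. With the empty vector that of MCM6 does (-0.06 to 0.41) and that of MCM3 does not (-0.30 to 0.10). In G1242V they ran from -0.10 to 0.26 for MCM3 and from -0.41 to 0.01 for MCM6. MCM6 and MCM7 are the only 2 of the 42 genes with the strict form of the Mcm1 box shown above for MCM6. Looser forms were not searched, so the other genes may hold Mcm1 sites.

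CDC45, which with GINS activates the helicase, was among the genes that rose most. It was at 9.68, 10.9 and 10.6 scaled TPM in WT, 25.6, 24.9 and 24.7 in R787G, 17.9, 19.9 and 14.7 in G1242V and 31.8 and 29.9 with the empty vector. The groups did not overlap, and their means ran from WT through G1242V and R787G to the empty vector. The log2 fold change was 1.48 ± 0.11 with the empty vector (limma, adjusted p = 4.23e-06), 1.20 ± 0.096 in R787G (4.82e-06) and 0.69 ± 0.096 in G1242V (2.20e-04). Of the GINS subunits, PSF1 rose in all 3 (0.77, 0.63 and 0.35 in the same order), and PSF3 and SLD5 rose with the empty vector (0.34 and 0.39) and in R787G (0.43 each) and did not pass in G1242V (0.17 and -0.07). Their empty vector calls were lost without either empty vector library, and that of SLD5 also after quantile normalization. PSF2 went the other way, from 57.1 to 57.8 in WT to 44.6 to 50.7 in R787G (-0.26 ± 0.067) and 47.0 to 51.9 with the empty vector (-0.21 ± 0.075), and was 58.4 to 65.6 in G1242V (0.10 ± 0.067, not passed). The empty vector call of PSF2 was lost in 7 of 22 other settings, and its sign depended on the scaling, at 0.01 on the TPM as deposited and 0.05 on TPM rescaled to nuclear protein-coding genes.

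Of the firing factors SLD2 rose against WT in each group. This target of cyclin-dependent kinase went from 12.5 to 15.5 scaled TPM in WT to 24.4 and 24.8 with the empty vector, 20.8 to 21.5 in R787G and 17.0 to 19.1 in G1242V (0.77, 0.57 and 0.35). SLD3 and DPB11, its partners, were within 0.03 of 0 on the log2 scale with the empty vector and in R787G, where their 95% intervals ran from -0.14 to 0.16 at the widest. On TPM as deposited and rescaled to coding genes DPB11 passed with the empty vector, at 0.21 and 0.25. In G1242V both fell, SLD3 from 22.4 to 22.9 in WT to 19.0 to 20.6 (-0.19 ± 0.05, limma, adjusted p = 0.00869) and DPB11 from 25.3 to 26.2 to 21.9 to 23.9 (-0.15 ± 0.051, adjusted p = 0.0335). The DPB11 call did not pass in 10 of 22 other settings.

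All 8 polymerase subunit genes rose with the empty vector and in R787G, and 6 of the 8 rose in G1242V. DPB2, the second subunit of polymerase epsilon, was at 10.5, 12.1 and 11.2 scaled TPM in WT, 28.6, 29.1 and 27.1 in R787G, 18.1, 19.7 and 15.6 in G1242V and 38.3 and 36.2 with the empty vector. As for CDC45, the 4 groups did not overlap and ran from WT through G1242V and R787G to the empty vector, at 1.64 ± 0.095 with the empty vector (limma, adjusted p = 1.38e-06), 1.26 ± 0.085 in R787G (1.79e-06) and 0.61 ± 0.085 in G1242V (2.10e-04). POL1, the catalytic subunit of polymerase alpha, was at 12.1, 12.0 and 12.2 in WT, 26.4, 25.4 and 28.2 in R787G, 22.3, 24.2 and 17.8 in G1242V and 20.9 and 19.1 with the empty vector. Its order was different, with R787G highest: 1.07 ± 0.098 in R787G (adjusted p = 9.97e-06), 0.76 ± 0.098 in G1242V (1.34e-04) and 0.68 ± 0.11 with the empty vector (4.58e-04). The other subunits of polymerase alpha-primase, POL12 and PRI2, rose by 0.71 and 0.85 in R787G, 0.41 and 0.63 in G1242V and 0.52 and 0.69 with the empty vector.

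The catalytic subunits of delta and epsilon did not pass in G1242V, though both did without G1242V replicate 3. POL3, of delta, was at 20.9 to 22.5 scaled TPM in WT, 33.4 to 33.9 in R787G, and 35.4 and 36.0 with the empty vector (0.61 and 0.69). In G1242V it lay at 21.5 to 25.5, overlapped WT and did not pass (0.11 ± 0.064). POL2, of epsilon, likewise rose in R787G (0.51) and with the empty vector (0.33) and overlapped WT in G1242V (0.17 ± 0.074, limma, adjusted p = 0.0742). The smaller delta subunits POL31 and POL32 passed in all 3, at 0.34 and 0.61 in R787G, 0.41 and 0.56 with the empty vector and 0.21 and 0.29 in G1242V, the POL31 value in G1242V not passing in 12 of 22 other settings. Within polymerase epsilon the order of levels turned. DPB2 stood below POL2 in WT (means 11.2 and 17.4 scaled TPM) and in G1242V (17.8 and 19.8). It stood above POL2 in R787G (28.3 and 25.3) and with the empty vector (37.2 and 22.1).

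POL30, the gene for the sliding clamp PCNA, had the largest change of the 42 in every comparison with WT, though with the empty vector it was level with DPB2 (1.65 and 1.64). Its levels were 23.1, 25.8 and 36.1 scaled TPM in WT, 110.1, 109.7 and 118 in R787G, 101, 105.0 and 68.5 in G1242V and 88.3 and 90.6 with the empty vector. Every library of the other groups was above every WT library, with G1242V replicate 3 the nearest. The log2 fold change was 1.98 ± 0.18 in R787G (limma, adjusted p = 9.67e-06), 1.66 ± 0.18 in G1242V (4.45e-05) and 1.65 ± 0.20 with the empty vector (7.64e-05). In WT POL30 had the lowest mean of the clamp and loader genes, and in each other group it had the highest.

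RFC5, a subunit of the clamp loader, was at 29.1, 25.5 and 34.6 scaled TPM in WT, 64.3, 59.8 and 65.7 in R787G, 57.5, 59.7 and 51.0 in G1242V and 50.0 and 53.4 with the empty vector. It also rose without overlap, by 1.08 ± 0.10 (limma, adjusted p = 1.50e-05), 0.90 ± 0.10 (6.75e-05) and 0.79 ± 0.12 (2.63e-04). RFC5 (chrII:423765-424829) and POL30 (chrII:424990-425766) are convergent neighbours whose coding sequences end 160 bp apart. The kit keeps strand, but the strand setting of the counting is not given in the sources used here, so reads from the transcript end of 1 gene may count in the other, which was not tested. The other loader subunits moved less: RFC1 rose in all 3 (0.35 with the empty vector, 0.37 in R787G and 0.19 in G1242V), RFC2 rose by 0.16 and 0.13 with the empty vector and in R787G, and RFC3 rose by 0.20 in R787G. RFC4 fell in G1242V, from 37.4 to 40.3 in WT to 29.9 to 31.6 (-0.32 ± 0.052), and had values of 0.02 and 0.00 with the empty vector and in R787G. The RFC2 calls did not pass in 9 and 12 of 22 other settings.

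RFA2 and RFA3 encode subunits of the same RPA trimer. RFA3, the highest of the 42 in every group, rose from 104.1 to 128 scaled TPM in WT to levels of 179 to 185 in R787G, of 131 to 163 in G1242V, and of 179 and 194 with the empty vector (0.66, 0.40 and 0.70). RFA2 overlapped WT in R787G and with the empty vector (0.06 in both), at 76.8 to 88.9 in WT, 83.6 to 86.2 in R787G and 83.6 and 85.5 with the empty vector. In G1242V it fell to 56.9 to 75.3 (-0.28 ± 0.097, limma, adjusted p = 0.0343), which did not pass in 7 of 22 other settings, the fit without G1242V replicate 3 among them. All 4 fork protection genes rose with the empty vector and in R787G. MRC1, the checkpoint mediator of the fork, led them with the empty vector (0.66), and CSM3, the partner of TOF1, in the other groups (0.52 in R787G and 0.47 in G1242V). TOF1 did not pass in G1242V (0.22 ± 0.093). RAD27, the flap endonuclease, rose by 0.79 with the empty vector and 0.84 in R787G, and CDC9, the DNA ligase, by 0.79 and 0.69. In G1242V they rose by 0.33 and 0.30, the first with overlap with WT and without a call in 8 of 22 other settings.

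**Figure D2:**
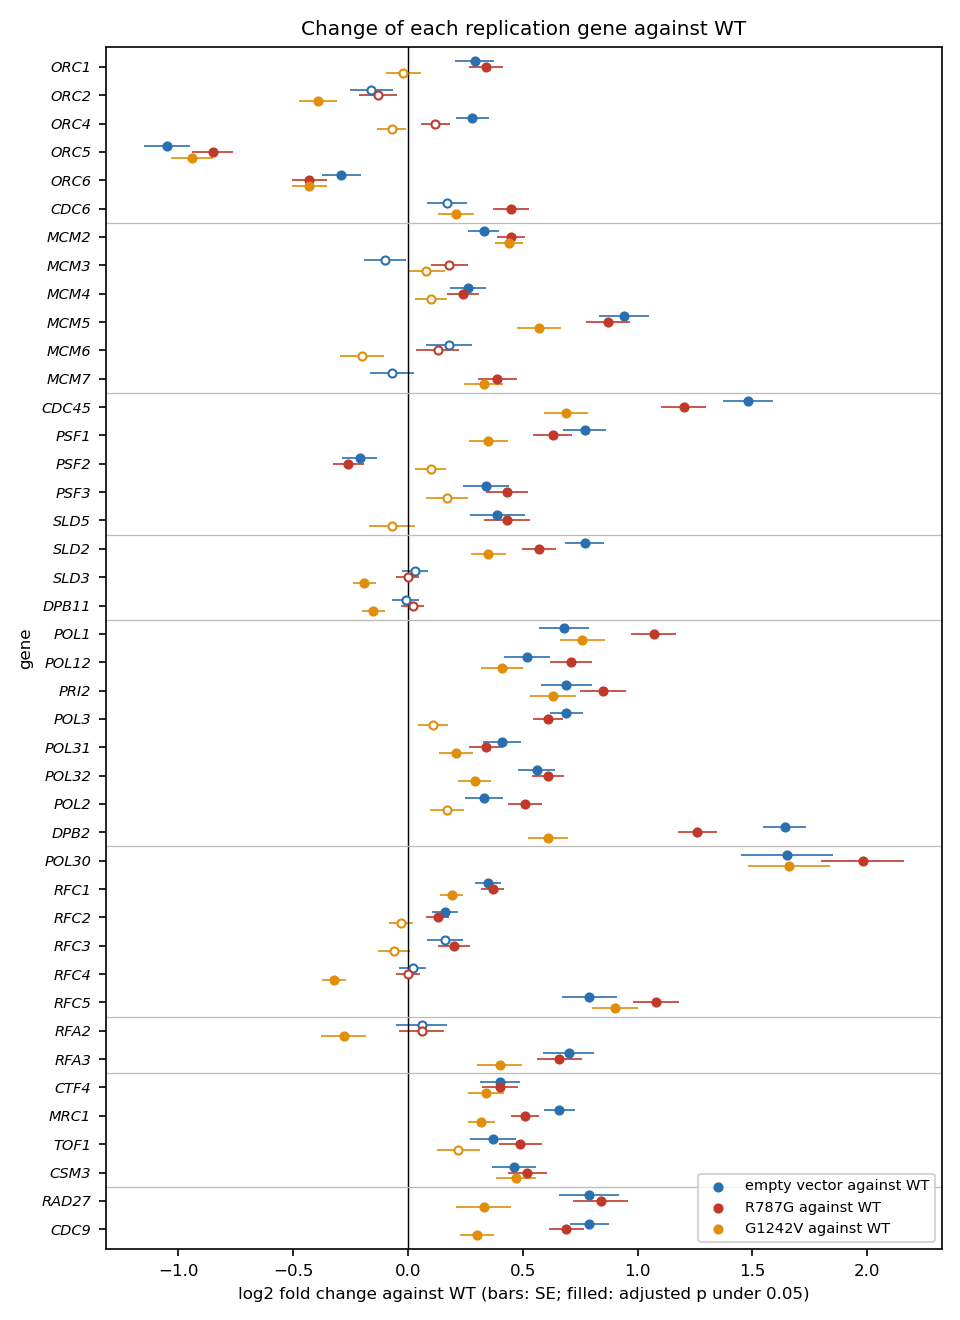
Log2 fold change against WT of each of the 42 genes, grouped by role, for the empty vector (blue), R787G (red) and G1242V (orange), with bars for the SE and filled points for an adjusted p under 0.05. POL30 lies farthest right at 1.65 to 1.98, ORC5 farthest left at -1.05 to -0.85, and most orange points lie to the left of the red ones.

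**Figure D3:**
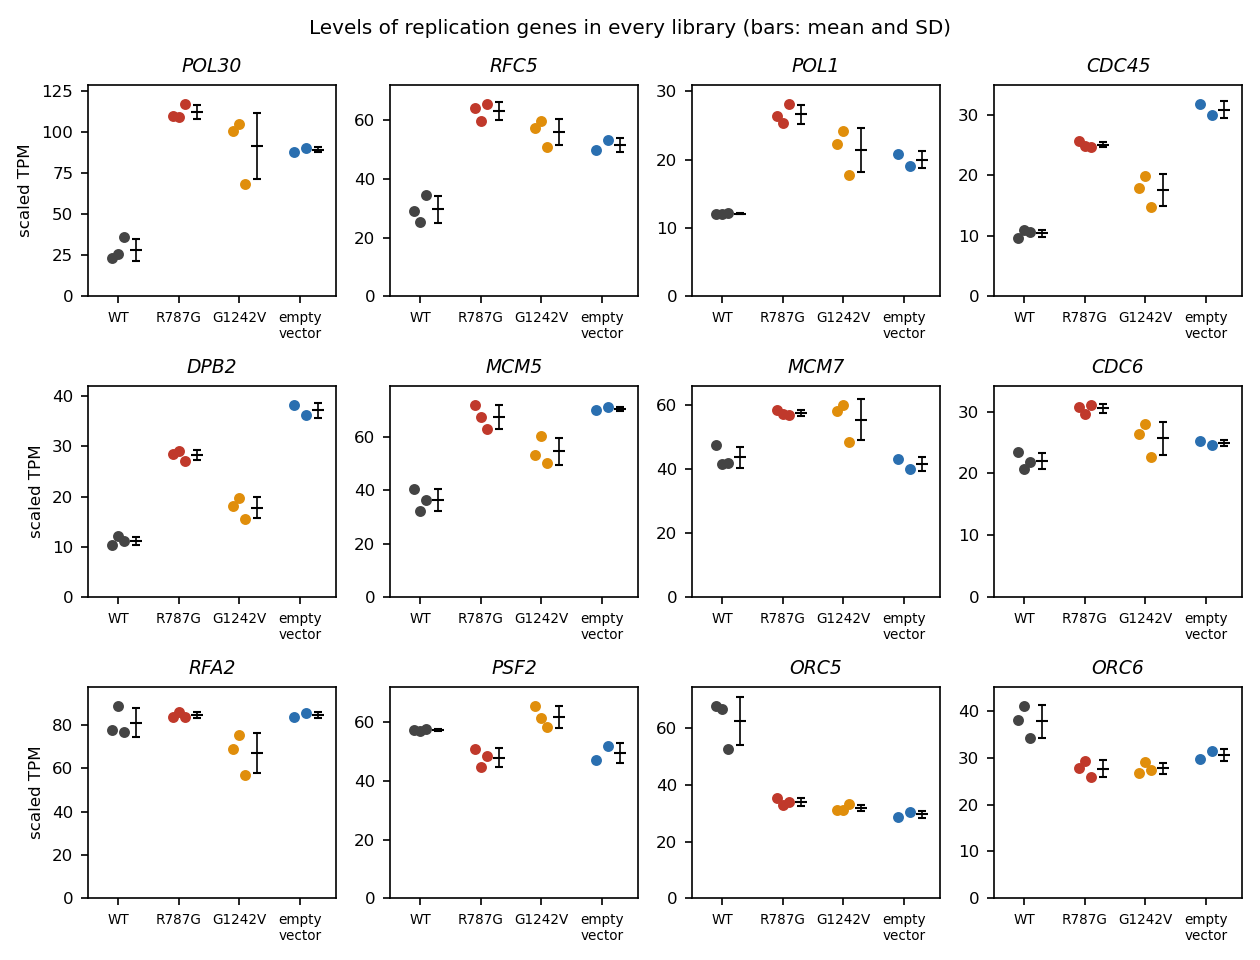
Scaled TPM of 12 of the genes in every library, with 1 point per library and the mean and SD beside each group (3 libraries, 2 for the empty vector). CDC45 and DPB2 climb from WT through G1242V and R787G to the empty vector, POL30, RFC5 and POL1 are highest in R787G, and ORC5 and ORC6 are highest in WT.

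The 2 plasmid mutants were then compared with each other. In R787G 29 of the 42 genes were higher than in G1242V and 1 was lower, where 26.3% of all features were higher and 19.9% lower, and the median log2 difference was 0.26 beside 0.05 over all features. The widest differences were those of DPB2 (0.64 ± 0.085, limma, adjusted p = 5.47e-04), CDC45 (0.51 ± 0.096, 0.0025), RAD27 (0.51 ± 0.12, 0.00724), SLD5 (0.50 ± 0.10, 0.00406) and POL3 (0.50 ± 0.064, 5.09e-04). PSF2 was the gene that was lower (-0.36 ± 0.067, 0.00238). In 29 of the 42 genes the G1242V mean lay between those of WT and R787G, a count that was not made over all features. The threshold was not passed for ORC5 (0.09, 95% interval from -0.11 to 0.29), ORC6 (-0.01, from -0.17 to 0.16), MCM2 (0.00, from -0.13 to 0.14) and MCM7 (0.06, from -0.13 to 0.25), nor for POL30 (0.32, from -0.08 to 0.72). G1242V replicate 3 was the nearest to WT of its group: the median difference of the 42 genes from the WT mean was 0.24 and 0.31 in G1242V replicates 1 and 2 and 0.04 in replicate 3. Without it 15 genes were higher in R787G and 1 lower, the median difference was 0.18, and 30 G1242V means lay between. Leaving out an R787G library lowered the count as much, to 15 and 1 without replicate 1 and to 16 and 1 without replicate 2 or 3.

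In the fit over all 11 libraries the empty vector group differed from R787G in few of these genes. With only these 2 groups fitted, 13 more of the 42 passed and none was lost. The median there was -0.023 for the 42 and 0.05 over all features, and the share of all features called was not counted. The number of calls thus depends on the fit, and few calls do not show that the groups are alike. Compared with R787G 1 of the 42 genes was higher and 4 were lower, where 23.0% of all features were higher and 16.9% lower, and the median difference was -0.02 beside 0.051. The gene that was higher was DPB2 (0.38 ± 0.095, limma, adjusted p = 0.011), and those that were lower were MCM7 (-0.46 ± 0.096, 0.00516), POL1 (-0.40 ± 0.11, 0.0176), CDC6 (-0.28 ± 0.087, 0.0283) and MCM3 (-0.28 ± 0.09, 0.0322). This small count stayed at 5 under the other variance models and filters. It was 3 without R787G replicate 1, 2 without R787G replicate 3 and 9 without WT replicate 3. The median of the 42 was -0.035 without empty vector replicate 1 and -0.014 without replicate 2. TPM rescaled to coding genes gave 17 higher and none lower, but all features moved up there. Their median was 0.279, and that of the 42 was 0.207. Compared with G1242V 21 genes were higher and 2 lower with the empty vector, where 37.4% and 25.6% of all features were, led by DPB2 (1.03 ± 0.095, 2.45e-05), CDC45 (0.80 ± 0.11, 1.83e-04) and POL3 (0.58 ± 0.072, 1.18e-04). MCM7 (-0.40 ± 0.096) and PSF2 (-0.31 ± 0.075) were lower. Without empty vector replicate 1 the counts were 11 and 1, and without G1242V replicate 3 they were 18 and 5. Both comparisons use the same 2 empty vector libraries.

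Sorted by the order of their group means, 12 genes ran from WT through G1242V and R787G to the empty vector, among them CDC45, DPB2, POL3, MCM5 and CDC9. In 8 the empty vector came between G1242V and R787G, as for POL12, POL2 and RAD27. In 6 it came between WT and G1242V, namely POL30, POL1, RFC5, CDC6, CSM3 and MCM2. Another 6 ran from G1242V through WT and R787G to the empty vector (MCM6, ORC4, RFA2, RFC2, RFC4 and SLD3). The remaining genes fell in orders of at most 3 genes each. How often these orders occur over all features was not counted. Neighbours in these orders often did not differ, as for POL30, where none of the 3 differences among the other groups passed (0.32 between R787G and G1242V, -0.33 between the empty vector and R787G and -0.01 between the empty vector and G1242V). The replicate spread behind these orders was uneven. The median coefficient of variation of the 42 genes was 7.29% in WT, 8.81% in G1242V, 2.65% in R787G and 2.6% in the 2 empty vector libraries, with POL30 the most variable in both WT (24.1%) and G1242V (22.0%).

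The share of promoters with an MCB was read against that over all genes. The MCB was in 21 of the 42 windows (50.0%), against 184 of 6001 windows of all genes (3.07%), and 7 of the 42 held more than 1 copy, against 0.35% of all windows. The core was in 30 of the 42 (71.4%, against 14.0%) and the SCB letters in 9 (21.4%, against 7.7%). The Mcm1 box, in the strict form searched, was in 2 (4.76%, against 2.57%). MCB letters contain the core, and SCB letters can overlap it, as in POL30. By role the MCB was in all 8 polymerase genes, all 4 fork protection genes and both Okazaki genes, in 1 of 6 licensing genes (CDC6) and in none of the 6 MCM genes. Of the 21 genes with an MCB, 18 rose with the empty vector, 19 in R787G and 15 in G1242V, and of the 21 without, 11, 12 and 7 rose. Their median log2 fold changes were 0.56, 0.57 and 0.32 with an MCB and 0.18, 0.20 and -0.02 without. Over all tested genes with a window, the 42 included, 182 had an MCB. Of those 58.8%, 59.9% and 48.9% rose in the same order, against 34.0%, 36.2% and 27.5% of the genes without. This share thus repeats the 42 in part. The letters and the change did not always go together: RFA2, with MCB at -120 and -108, did not rise in any group, and RFC4, with 1 MCB, did not either. MCM5 and RFC5 rose without an MCB, though MCM5 has the SCB letters at -123 and RFC5 the core at -86. Of the 8 genes that fell in any group, RFA2 and RFC4 had an MCB and ORC2, ORC5, ORC6, PSF2, SLD3 and DPB11 had none. Of the latter, ORC5, SLD3 and DPB11 have the core. These are descriptions of letters in a window and show no binding.

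**Figure D4:**
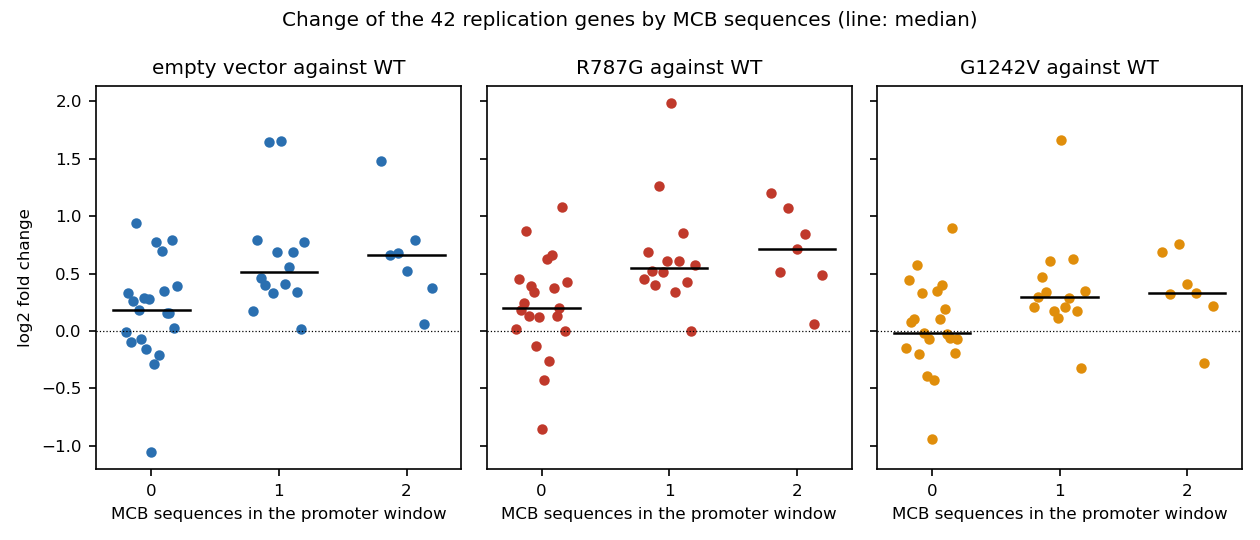
Log2 fold change against WT of the 42 genes by the number of MCB sequences (0, 1 or 2) in the promoter window, 1 point per gene and a line at the median, for the empty vector, R787G and G1242V. The points without an MCB centre near 0.18, 0.20 and -0.02, those with at least 1 lie higher, and the points near 0 at 2 copies in the first 2 panels are RFA2.

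Some of the genes lie close together. No coding sequence of the 42 overlapped that of another RefSeq gene. POL2 ends 219 bp before ORC5 begins on the same strand of chromosome XIV (chrXIV:148212-154880 and chrXIV:155100-156539), and while POL2 rose in R787G (0.51) ORC5 fell (-0.85). RFC5 and POL30, convergent on chromosome II, both rose.

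A second list held 21 other replication genes, among them ORC3, the Cdt1 gene TAH11, the kinase genes CDC7 and DBF4, RFA1 and PRI1. Of these 11 rose and 1 fell with the empty vector, 11 rose and 2 fell in R787G and 8 rose and 4 fell in G1242V, with medians of 0.24, 0.22 and 0.06. The share that rose was 52.4%, 52.4% and 38.1%, beside the 36.8%, 36.5% and 26.6% of all features given above. CTF18, of an alternative clamp loader, rose most, from a mean of 7.39 scaled TPM in WT to 16.1 with the empty vector (1.04 ± 0.13, limma, adjusted p = 8.43e-05), 19.2 in R787G (1.28 ± 0.11, 9.04e-06) and 16.3 in G1242V (1.04 ± 0.11, 4.85e-05). ELG1, of the clamp unloader, was next with the empty vector (0.74), and RNH203, a subunit of RNase H2, in R787G (0.86) and G1242V (0.67). TAH11 showed the widest gap between the mutants, 0.63 ± 0.098 higher in R787G than in G1242V (adjusted p = 0.00104). RFA1 and PRI1, the missing subunits of RPA and primase, did not pass in any comparison with WT, and they lie on chromosomes I and IX, which varied between libraries.

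Other cell cycle genes were read beside the replication genes. Over all features 36.8%, 36.5% and 26.6% rose with the empty vector, in R787G and in G1242V, and 25.2%, 29.3% and 27.3% fell. Of 12 other genes listed as MBF targets, 10 rose with the empty vector, 11 in R787G and 10 in G1242V and none fell, with medians of 0.94, 1.07 and 0.77. The empty vector calls of CLB6 (1.19) and CLB5 (0.44) were lost after quantile normalization (0.23 and 0.01). In R787G the call of PMS1 (0.17) was lost with only these groups fitted and in other settings. CDC21, the thymidylate synthase gene, and MSH6, of mismatch repair, led with the empty vector (1.26 and 1.20), and CLB6, an S phase cyclin, in R787G (2.00) and G1242V (1.77), from a WT mean of 1.17 scaled TPM. RNR1, the large ribonucleotide reductase subunit, was next in R787G (1.73) and NRM1, a repressor of MBF, in G1242V (1.66). Of 6 listed SBF targets, 4 rose and 1 fell with the empty vector, 6 rose in R787G and 5 in G1242V. The empty vector rise of GIC1 (0.34) was lost in several settings and was -0.09 after quantile normalization. That of PCL1 (0.52) was lost with only these groups fitted. CLN2, a G1 cyclin, was the one that fell (-0.60 ± 0.19), a call lost on TPM as deposited, on TPM rescaled to coding genes, with only these groups fitted and without empty vector replicate 2. Its rise in R787G (0.46) was lost with only these groups fitted and without R787G replicate 2 or 3 or WT replicate 1 or 2. Of 7 regulators of the transition 4 rose and 1 fell with the empty vector, 3 rose in R787G and 2 in G1242V. The shares that rose were 57.1%, 42.9% and 28.6%, in the mutants near those of all features. The empty vector rise of WHI5 (0.27) was lost with only these groups fitted and in other settings. After quantile normalization its sign turned (-0.23), and the rise of STB1 (0.40) was lost (0.05). SWI6, the subunit MBF and SBF share, rose by 0.55, 0.36 and 0.34, SWI4, of SBF, rose by 0.42, 0.54 and 0.32, and the G1 cyclin gene CLN3, on chromosome I, fell with the empty vector (-0.84 ± 0.28). The CLN3 value was -0.53 without WT replicate 1, and its call was lost in 5 of 22 other settings.

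The empty vector group parted from the mutants in genes of other phases. The shares of all features against WT are given above. With the empty vector 16.9% of all features were lower than in R787G and 25.6% lower than in G1242V. Of 8 histone genes, which peak in S phase, none rose and 3 fell with the empty vector, led by HTA1 (-0.78 ± 0.23, lost without either empty vector library) and HTB1 (-0.66 ± 0.11), while 5 rose in R787G and 7 in G1242V, led in both by HTA2 (1.44 and 1.93). All 8 were lower with the empty vector than in R787G and than in G1242V at an adjusted p under 0.05 (limma), with log2 differences from -1.54 to -0.53 and from -2.04 to -0.66. Histone gene pairs are near-identical in coding sequence, so their split within a pair is uncertain. Of 9 G2/M genes none passed with the empty vector, 7 rose in R787G and 8 in G1242V, led by the mitotic cyclin genes CLB1 and CLB2 in both (0.91 each in R787G, 1.36 and 0.93 in G1242V), and 8 and 7 were lower with the empty vector than in R787G and in G1242V. Of 9 genes expressed from M phase into G1, mostly daughter cell genes for cell separation, 8 fell with the empty vector, led by DSE2 (-1.71 ± 0.20) and SCW11 (-1.31 ± 0.13). In R787G 1 of these fell, the chitinase gene CTS1 (-0.65), and in G1242V 3 rose, led by DSE1 and PCL9 (0.58 each). The DSE1 call was lost with only these groups fitted, after quantile normalization and in several fits with a library left out. Its value was 0.30 without WT replicate 2, where it was not called. Of the 9 genes 7 and 8 were lower with the empty vector than in R787G and in G1242V. The summed level of the M/G1 genes was 0.508 and 0.479 of the WT mean in the empty vector libraries, against 0.748 to 0.855 in R787G and 0.919 to 1.23 in G1242V. Whether the phase makeup of the cultures had a part in the replication gene values was not tested.

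**Figure D5:**
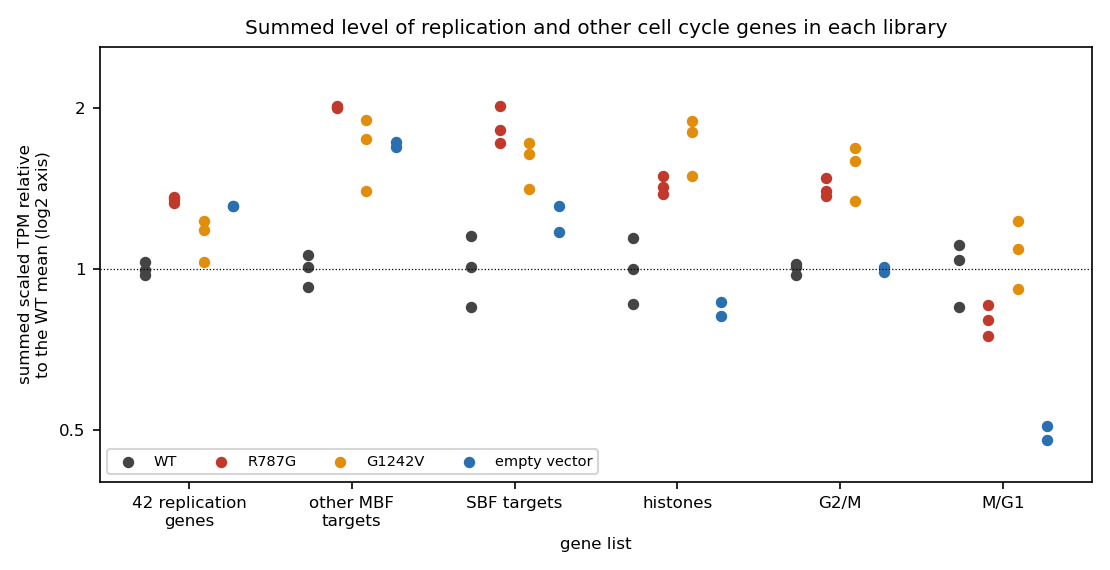
Summed scaled TPM of the 42 replication genes and of 5 other lists in each library, relative to the WT mean (log2 axis), 1 point per library. The replication genes lie at 1.31 to 1.36 in R787G and with the empty vector, whereas histone, G2/M and M/G1 sums of the empty vector libraries lie below those of R787G.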

How the data were processed

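The deposited table holds TPM per gene and library, made by the authors. The submitters' processing notes name bcl2fastq 2.17, STAR, RSEM, edgeR and sacCer3 without roles, and neither annotation nor strand setting is given there. TPM are corrected for length and library total, so they keep no read depth. Of 7036 features, 1 with shifted cells was left out. Each library was scaled by the median of its ratios to the gene-wise geometric mean, taken from the 5221 genes that reached 10 TPM throughout, and the 6432 features reaching 1 TPM in 2 or more libraries were tested. limma 3.58.1 (R 4.3.3, eBayes with trend) was fitted to log2(scaled TPM + 1) over all 11 libraries, two-sided, with Benjamini-Hochberg adjustment over all 6432 features and a threshold of 0.05. This scale understates the change of low genes. Simulated data of 6432 features held genes changed by 0.5 or by 1 on the log2 scale. The fit called 65% and 82% of these for the empty vector against WT, 63% and 97% for R787G and 71% and 93% for G1242V. Of the calls 4.5%, 7.0% and 5.2% were false. Far fewer genes changed there than were called in these data. Each gene also had the same spread in all groups there, so the rates may not hold here. The 42 genes, the other lists and the naming rule (the 3 largest changes per comparison with WT, textbook genes of each role, at most 2 per other list) were chosen with earlier results of these data known, and genes outside the rule are group summaries. Promoters and gene names came from RefSeq R64, by locus tag (5955 features) or symbol (122). Alternatives were scaling, pseudocount, filter, variance model, groups in the fit, a replicate block and each library left out.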

Additional observations from a re-analysis of the deposited data

How the results depend on the processing

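Scaling mattered most for the empty vector group. The median of all features in its comparison with WT moved from 0.089 to 0.311 on the TPM as deposited and 0.35 on TPM rescaled to nuclear protein-coding genes, while the replication genes stayed 0.269 to 0.273 above that median. Rescaling to coding genes, which lifts all genes of that group together, changed the sign of 5 genes against WT, 16 against R787G and 9 against G1242V, and the TPM as deposited did so for 5, 12 and 8. Most passed in neither setting. Those that passed in one were, against WT, PSF2 (0.01 as deposited, 0.05 rescaled) and DPB11 (0.21 and 0.25), and, rescaled only, RFC1 against R787G (0.21) and CDC6 (0.29), MCM2 (0.22), PSF2 (0.02) and CSM3 (0.32) against G1242V. The 5 genes called between the empty vector and R787G became 17 (17 higher) rescaled to coding genes, 7 (6 higher) as deposited, 8 (1 higher) after quantile normalization, 18 (7 higher) with only these groups fitted, and 1 to 9 with a library left out. The 23 called between the empty vector and G1242V became 35 rescaled to coding genes (all higher), stayed 23 after quantile normalization (17 higher, 6 lower) and were 12 to 25 with a library left out. Between R787G and G1242V 30 became 20 after quantile normalization and 16 to 31 with a library left out. Against WT the range with a library left out was 23 to 34 of 32 with the empty vector, 32 to 35 of 34 in R787G and 24 to 32 of 29 in G1242V. With 1 empty vector library left, that library is assumed to vary like the other groups. In all 22 other settings, 23 of the 32, 31 of the 34 and 21 of the 29 calls against WT passed, as did 12 of 30 between the mutants, 0 of 5 between the empty vector and R787G and 10 of 23 between the empty vector and G1242V. The cause of these shifts was not tested. Replicate numbers did not pair the samples: deviations of same-numbered libraries correlated from -0.159 to 0.274. With the number as a replicate block 31, 34 and 28 genes passed against WT, 28 between the mutants, and 5 and 23 in the empty vector comparisons with R787G and G1242V. Depth is unknown in TPM and limits the precision of low genes to an extent not measured here.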
